A study of Mus musculus with 9 samples.

Results

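Long non-coding RNAs that stay in the nucleus or carry small nucleolar RNAs (snoRNAs) in their introns were examined in bone marrow neutrophils of 2 Rragc genotypes. The 9 genes considered were Malat1, Neat1, Kcnq1ot1, Snhg1, Snhg5, Snhg8, Snhg12, Gas5 and Epb41l4aos. They were taken by symbol, and the group was chosen by the measured levels of Malat1, which had been seen to be higher in every RragcS74N/+ library. Malat1's own levels are therefore a description here and carry no test. Of the 9 genes, 7 were among the 7197 genes of the deposited table, and all 7 passed the filter for testing, a mean over libraries of 10 normalized counts or more. Snhg12 and Epb41l4aos have no row in that table and were not analysed here.

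The data comprised 5 Rragc+/+ and 4 RragcS74N/+ libraries from mice aged 2 months. RragcS74N/+ mice carry 1 allele edited by CRISPR in every cell of the body, which encodes an active form of RagC, a subunit of the Rag GTPases that signal amino acid sufficiency to mTORC1, and Rragc+/+ mice carry no edited allele. Neutrophils were sorted as CD45+, CD11b+ and Ly6G+ cells, and their RNA was profiled from the 3′ end with oligo-dT priming. The question was whether the other nuclear and host-gene RNAs followed Malat1 across genotypes and across libraries.

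Malat1 and Neat1 are long RNAs retained in the nucleus. Malat1 lies in nuclear speckles, which store splicing factors, and Neat1 is the scaffold of paraspeckles. Kcnq1ot1 is an imprinted antisense RNA that silences genes of its cluster on chromosome 7. Snhg1, Snhg5, Snhg8 and Gas5 are host genes: their introns release snoRNAs, which guide chemical modification of ribosomal RNA, while the spliced exons form an RNA with little coding potential. Gas5 and many other host genes share with ribosomal protein genes a tract of pyrimidines at the start of the transcript, and mRNAs with that tract are translated under control of mTORC1.

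The sequence around the annotated start of these RNAs is printed first, because the mean of the host genes varied between libraries together with the share of ribosomal protein genes. Each window holds 30 bases of RefSeq sequence (GRCm38.p6), 15 on each side of the annotated start, on the strand of the gene. Capitals mark a C followed by at least 4 further C or T letters that begins within 5 bases of the start.
Gas5, chr1:161035151-161035180, plus strand: agccgccatctcagCCTTTCggagctgtgc
Gas5, a second annotated start, chr1:161034586-161034615, plus strand: agggggcgggcccgcgagctcgacagcccg
Snhg8, chr3:123508322-123508351, minus strand: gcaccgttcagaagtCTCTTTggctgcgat
Snhg1, chr19:8723472-8723501, plus strand: gttgttcttgtcggcctcatttttccttgt
Snhg5, chr9:88522883-88522912, minus strand: gagctgcggtgaaccgggctcgttctttta
Malat1, chr19:5802658-5802687, minus strand: ctccgggctctgcgtcaggcattcaggcag
Such a run stood at 1 of the annotated starts of Gas5 and at that of Snhg8, and none was found in the windows of Snhg1, Snhg5 and Malat1. Of 32851 start windows of the same length, 18.3% held one. The match is a description of these letters at annotated starts, which may differ from the starts used in neutrophils.

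Oligo-dT can also prime on runs of A inside a transcript, so these runs are shown for the nuclear RNAs. The GENCODE transcript of Malat1, 6983 bases long, has 1 run of 10 or more A, which is shown in capitals within 30 bases of the transcript. It spans transcript positions 6674 to 6685 and ends 298 bases before the annotated end of this transcript. The annotated end may differ from the end of the RNA in neutrophils.
Malat1, transcript positions 6665 to 6694: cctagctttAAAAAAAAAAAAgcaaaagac
The Kcnq1ot1 transcript, 93092 bases long, holds 10 such runs, the longest of 41 A, whereas that of Neat1, 20771 bases long, holds none above 7 A. With 1 value per gene, reads primed at different places along a transcript cannot be told apart.

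The recovered reads over the listed genes numbered 1214295 to 1973957 per library. All 12 neutrophil markers were listed, and of the 4 platelet markers 0 were listed. B cell, T and NK cell, monocyte and immature granulocyte lists had 1 of 6, 1 of 7, 2 of 6 and 1 of 6 markers listed. Erythroid markers, 7 of 8 listed, summed to 1091 to 5609 normalized counts in Rragc+/+ and 379 to 2158 in RragcS74N/+ libraries (exact permutation test, two-sided, unadjusted p = 0.0476). The eosinophil genes Prg2 and Epx summed to 12.2 to 100.3 normalized counts in Rragc+/+ and 23.9 to 187 in RragcS74N/+ (exact permutation test, two-sided, unadjusted p = 0.127), with the highest sums in Rragc+/+ replicate 5 and RragcS74N/+ replicates 2 and 4. For summed neutrophil, monocyte and cell cycle markers the same test gave an unadjusted p of 0.635, 0.984 and 0.984. For the share of mitochondrially encoded genes it gave 0.397. In bulk libraries such as these, fewer cells of a type and less RNA per cell cannot be told apart.

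Malat1 measured 1558, 1773, 2343, 2126 and 2003 normalized counts in Rragc+/+ replicates 1 to 5. In RragcS74N/+ replicates 1 to 4 it measured 2888, 3056, 2510 and 2446 normalized counts. The genotypes did not overlap, which is the property it was chosen for: the lowest RragcS74N/+ library stood 1.04 times above the highest Rragc+/+ library. The mean was 1961 ± 305 (SD, n = 5) against 2725 ± 294 (SD, n = 4), a ratio of 1.39 and a difference of 0.48 on the log2(normalized counts + 1) scale. Across alternative scalings, models and omitted libraries this difference lay between 0.34 and 0.55.

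The separation of Malat1 depended on how libraries were scaled. As a share of each library's total normalized counts, Malat1 held 0.120% to 0.174% in Rragc+/+ and 0.162% to 0.235% in RragcS74N/+ libraries, and on this scale the genotypes overlapped, with RragcS74N/+ replicate 4 below Rragc+/+ replicates 3 and 4. The last 500 bases of the annotated Malat1 transcripts averaged 40.4% G and C, against a median of 46.3% over tested genes. Annotated ends may differ from the ends of the RNA, so this content may not be that of the part captured. Removal of each library's trend on this GC content took the Malat1 difference from 0.48 to 0.34.

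**Figure D1:**
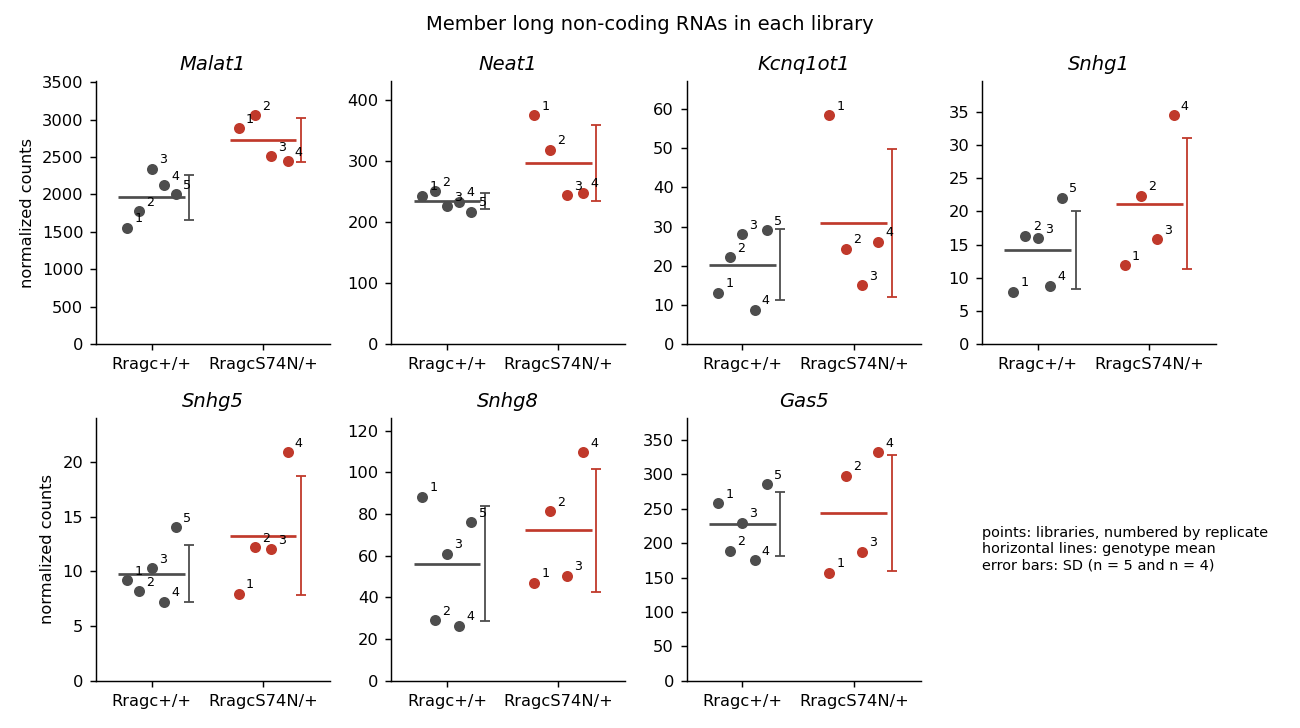
Normalized counts (linear axes from 0) of the 7 listed RNAs in each library, with points numbered by replicate, the genotype mean as a line and the SD as an error bar (n = 5 and n = 4). Malat1, for which the group was chosen, is the only panel in which the genotypes do not overlap. Snhg1, Snhg5, Snhg8 and Gas5 are highest in RragcS74N/+ replicate 4.

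Neat1, the neighbour of Malat1 on chromosome 19, came closest to the same pattern, counted per gene without telling its transcripts apart. It measured 244, 251, 226, 234 and 218 normalized counts in Rragc+/+ replicates 1 to 5 and 375, 319, 244 and 249 in RragcS74N/+ replicates 1 to 4. RragcS74N/+ replicates 1 and 2 were above every Rragc+/+ library, while replicates 3 and 4 fell below Rragc+/+ replicate 2 and so overlapped with that genotype. The lowest RragcS74N/+ library was at 0.971 times the highest Rragc+/+ library. The mean was 234 ± 13.5 (SD, n = 5) against 297 ± 62.6 (SD, n = 4), and the log2 difference of 0.32 (SE 0.17, 95% interval -0.04 to 0.68) did not pass the test (limma, adjusted p = 0.713).

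Kcnq1ot1, the imprinted antisense RNA, rested on 11 to 88 reads per library. It measured 13.2, 22.2, 28.1, 8.84 and 29.1 normalized counts in Rragc+/+ replicates 1 to 5 and 58.3, 24.4, 15.1 and 26.1 in RragcS74N/+ replicates 1 to 4. RragcS74N/+ replicate 1 alone was above the Rragc+/+ range, and the other 3 lay inside it. The log2 difference was 0.54 (SE 0.40, 95% interval -0.32 to 1.41; limma, adjusted p = 0.724), and without RragcS74N/+ replicate 1 it was 0.19. Counting was by strand, so reads of Kcnq1, which it opposes, were kept apart.

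The 4 host genes were considered next. Gas5, named for its accumulation in growth-arrested cells, measured 258, 189, 229.6, 175 and 286 normalized counts in Rragc+/+ replicates 1 to 5. In RragcS74N/+ replicates 1 to 4 it measured 157, 298, 188 and 332 normalized counts. Each genotype held high and low libraries, and the lowest and the highest values of all both came from RragcS74N/+. The log2 difference of 0.05 (SE 0.24, 95% interval -0.46 to 0.56; limma, adjusted p = 0.950) took the opposite sign under 6 of 20 alternatives, with a range from -0.29 to 0.24.

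Snhg8 measured 88.3, 29.2, 60.9, 26.5 and 76.2 normalized counts in Rragc+/+ replicates 1 to 5 and 47.1, 81.3, 50.5 and 109.7 in RragcS74N/+ replicates 1 to 4. It was high in Rragc+/+ replicates 1 and 5 and in RragcS74N/+ replicates 2 and 4, and the genotypes overlapped. The log2 difference was 0.43 (SE 0.37; limma, adjusted p = 0.744).

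Snhg1, whose introns hold a cluster of snoRNAs, rested on 11 to 33 reads per library. It measured 7.90, 16.4, 15.9, 8.84 and 22.1 normalized counts in Rragc+/+ replicates 1 to 5 and 11.9, 22.4, 15.8 and 34.5 in RragcS74N/+ replicates 1 to 4. RragcS74N/+ replicate 4 was again the highest, and the genotypes overlapped. The log2 difference was 0.53 (SE 0.36; limma, adjusted p = 0.721).

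Snhg5 was the scarcest of the group in reads, with 7 to 20 per library. It measured 9.22, 8.18, 10.3, 7.23 and 14.0 normalized counts in Rragc+/+ replicates 1 to 5 and 7.96, 12.2, 12.1 and 20.9 in RragcS74N/+ replicates 1 to 4. RragcS74N/+ replicate 4 alone exceeded the Rragc+/+ range. The log2 difference was 0.36 (SE 0.32; limma, adjusted p = 0.746). Without RragcS74N/+ replicate 4, the differences became 0.13 for Snhg5, 0.27 for Snhg1 and 0.20 for Snhg8.

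Of the 6 RNAs tested, 0 passed the adjusted threshold, where 0% of the 6673 genes tested passed it. At an unadjusted p under 0.05, 0 of the 6 were higher, beside 2.01% of all genes (134), and 0 were lower, beside 3.81% (254). The genotypes did not overlap for 0 of the 6, beside 0.674% of all genes in the direction of RragcS74N/+ (a count that includes Malat1) and 1.02% in the other. Removal of the GC trend and DESeq2 each brought Neat1 under an unadjusted p of 0.05, at an adjusted p of 0.880 and 0.741, and over all 20 alternatives its adjusted p ran from 0.437 to 0.994.

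All 6 fitted differences were above 0, as were 3564 of all 6673 genes tested. Their median was 0.39 on the log2 scale against 0.02 over all genes. That of Gas5, at 0.05, took the opposite sign under 6 of 20 alternatives. The 4 host genes are counted separately in these numbers although 2 of their 6 pairs were correlated between libraries. The 95% intervals of the 6 RNAs all included both 0 and the difference of 0.48 seen for Malat1. At this depth and number of libraries, an equal rise and no rise could therefore not be told apart.

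**Figure D2:**
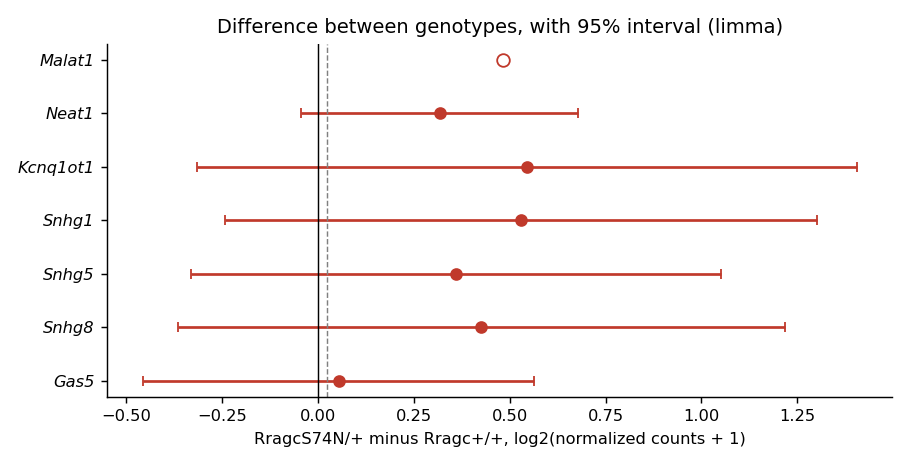
Difference between genotypes on the log2(normalized counts + 1) scale, RragcS74N/+ minus Rragc+/+, as limma estimates with 95% intervals (n = 5 and n = 4 libraries). Malat1 is an open circle without an interval because it was chosen for this difference; the dashed line is the median of all 6673 genes, 0.02, and every interval drawn crosses 0.

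Whether the RNAs varied together was examined within genotypes, which removes the difference between genotype means. The choice of Malat1 also depended on its extreme libraries, so it may still have some effect here. Each library's log2 value was taken relative to the mean of its genotype, and p-values came from exact permutation of libraries within a genotype (9 libraries, two-sided). Malat1 had a Pearson r of 0.23 with Neat1 (Spearman rho 0.23) and 0.33 with Kcnq1ot1 (rho 0.17). With Snhg1 the r was 0.11 (rho -0.03), with Snhg5 -0.19 (rho -0.10), with Snhg8 -0.23 (rho -0.40) and with Gas5 -0.15 (rho -0.22). None of the 6 relations passed the exact permutation test (adjusted p = 0.792 for r and 0.963 for rho in each). Without the 2 libraries farthest from the median of Malat1, Rragc+/+ replicates 1 and 3, the r was 0.56 with Neat1, 0.06 with Kcnq1ot1, -0.41 with Snhg1, -0.42 with Snhg5, -0.08 with Snhg8 and -0.08 with Gas5.

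Covariation among the host genes, a relation chosen after the data were seen, passed the test for 2 of their 6 pairs. Over the 15 pairs of the 6 other RNAs, the 6 pairs of host genes had r from 0.42 to 0.88, and the 9 pairs that involve Neat1 or Kcnq1ot1 had r from -0.73 to 0.47. Snhg8 and Gas5 had r = 0.88 (exact permutation test, p = 0.00243, adjusted p = 0.0208; rho = 0.75, p = 0.00451, adjusted p = 0.0339). Snhg5 and Gas5 had r = 0.86 (exact permutation test, p = 0.00278, adjusted p = 0.0208; rho = 0.90, p = 0.00347, adjusted p = 0.0339). These 2 of the 6 pairs passed the test. Without Rragc+/+ replicates 2 and 4, the libraries farthest from the median of Snhg8, the r of Snhg8 and Gas5 was 0.90. Rragc+/+ replicate 5 and RragcS74N/+ replicate 4 were the libraries farthest from the median of Snhg5. Without them the r of Snhg5 and Gas5 was 0.76 and rho 0.82, and neither passed (7 libraries, exact permutation test, unadjusted p = 0.118 and 0.0694). The test is weaker with fewer libraries, so how far this relation rests on those 2 could not be told. Snhg8 and Gas5 had r of 0.82 without the same 2 libraries (unadjusted p = 0.00694, exact permutation test). With each library left out in turn, the r of Snhg8 and Gas5 ran from 0.85 to 0.91 and that of Snhg5 and Gas5 from 0.78 to 0.95, where the omission of RragcS74N/+ replicate 1 took the unadjusted p to 0.0597 (exact permutation test).

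The other 4 pairs of host genes did not pass the exact permutation test after adjustment. For Snhg1 and Snhg5 the r was 0.83 (adjusted p = 0.0651), for Snhg5 and Snhg8 0.75 (adjusted p = 0.0651), for Snhg1 and Gas5 0.68 (adjusted p = 0.180) and for Snhg1 and Snhg8 0.42 (adjusted p = 0.488). Snhg1 differed from the rest mainly in Rragc+/+ replicate 1, where it was at its lowest and Snhg8 at its highest within the genotype. Neat1 had r of -0.73 with Snhg5, -0.48 with Snhg1, -0.43 with Gas5 and -0.31 with Snhg8, and none of these passed (exact permutation test, adjusted p = 0.180, 0.488, 0.504 and 0.504).

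**Figure D3:**
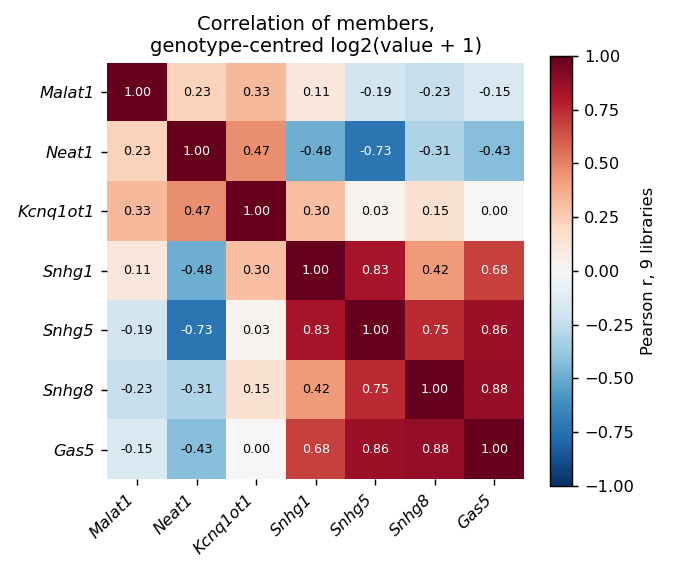
Pearson r between the 7 listed RNAs over 9 libraries, computed on log2(normalized counts + 1) relative to each genotype's mean, with red for positive and blue for negative values. The block of Snhg1, Snhg5, Snhg8 and Gas5 holds r from 0.42 to 0.88, whereas Malat1 has r between -0.23 and 0.33 with every other RNA.

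The mean of the 4 host genes, on the centred log2 scale, was then set against 6 measures of the libraries. This comparison was chosen after the data were seen, and p-values were adjusted over these 6 measures only. The host mean followed the share of reads in ribosomal protein genes, with r = 0.92 (exact permutation test, p = 0.00104, adjusted p = 0.00625; rho = 0.97, adjusted p = 0.0125), and r was 0.95 without Rragc+/+ replicate 4 and RragcS74N/+ replicate 1. That share was 3.55%, 3.33%, 3.45%, 3.31% and 4.76% in Rragc+/+ replicates 1 to 5 and 3.03%, 3.82%, 3.27% and 4.83% in RragcS74N/+ replicates 1 to 4. It was highest in Rragc+/+ replicate 5 and RragcS74N/+ replicate 4, and no difference between genotypes was detected (exact permutation test, two-sided, p = 0.905). With each library left out in turn the r ran from 0.87 to 0.96, and it was 0.86 without both Rragc+/+ replicate 5 and RragcS74N/+ replicate 4 (7 libraries, exact permutation test, unadjusted p = 0.0347).

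The host genes also followed the summed neutrophil markers, which include the abundant calprotectin genes S100a8 and S100a9 (r = 0.86, exact permutation test, adjusted p = 0.0469; rho = 0.87, adjusted p = 0.0458). Without Rragc+/+ replicate 5 or without RragcS74N/+ replicate 1 this relation had an unadjusted p of 0.0590 or 0.0528 (exact permutation test), with r of 0.82 and 0.79. Without both Rragc+/+ replicate 5 and RragcS74N/+ replicate 4 it had r of 0.71 (exact permutation test, unadjusted p = 0.125) and rho of 0.57 (unadjusted p = 0.264). The test is weaker with fewer libraries, so how far the relation rests on these libraries could not be told. Single markers differed: S100a8, S100a9, Ly6g, Camp and Retnlg were highest within each genotype in both of these libraries. Itgam and Cxcr2 were lowest there, at 988 and 895 normalized counts in the former and 903 and 1060 in the latter. The other markers showed neither order. The relations with the share of mitochondrially encoded genes (r = 0.76) and with Prg2 and Epx (r = 0.75) missed the threshold by the exact permutation test (adjusted p = 0.0854 for each). With erythroid and cell cycle markers r was 0.24 and 0.34 (exact permutation test, adjusted p = 0.571 and 0.450). Malat1 had r from -0.41 to 0.33 with the same 6 measures, and none passed the exact permutation test (adjusted p = 0.969). What part these measures have in the levels of the host genes was not tested.

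**Figure D4:**
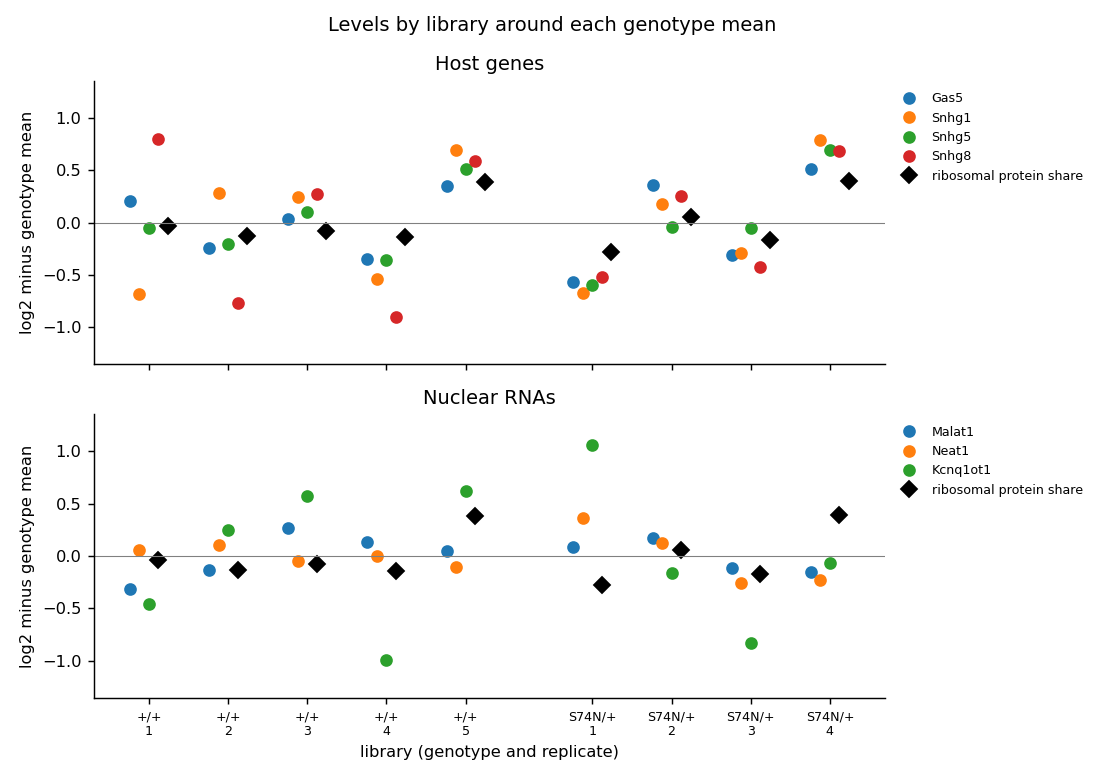
Log2 level of each RNA in each library relative to its genotype's mean, for the 4 host genes (top) and for Malat1, Neat1 and Kcnq1ot1 (bottom), with the share of ribosomal protein genes as black diamonds (log2 of the percentage, centred likewise). In the top panel all 4 host genes are above the mean in Rragc+/+ replicate 5 and RragcS74N/+ replicate 4 and below it in Rragc+/+ replicate 4 and RragcS74N/+ replicates 1 and 3, whereas Malat1 stays near its mean in Rragc+/+ replicate 5 and below it in RragcS74N/+ replicate 4.

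Genes outside the group showed how general this covariation was. Of 82 ribosomal protein genes tested, 63 had r above 0.5 with the mean of the 4 host genes, with a median of 0.74, whereas over all genes tested 17.2% had such an r and the median was -0.05. Among 151 protein-coding genes annotated with a snoRNA in their span, 48 had r above 0.5, with a median of 0.14. Ribosomal protein genes that hold a snoRNA, such as Rps13, are counted in both lists. Among the 10 further long non-coding RNAs, the snoRNA host genes Snhg3, Zfas1 and Snhg9 had r of 0.91, 0.80 and 0.75, and Snhg20 had r of 0.27. High values were not limited to snoRNA hosts, with r of 0.81 for Morrbid and 0.77 for the microRNA host Mir22hg. These values are descriptions over the same 9 libraries and carry no test.

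Further long non-coding RNAs were examined for the genotype difference. Of 39 named, 10 were listed and tested, and 0 of the 10 had an unadjusted p under 0.05 in either direction or genotypes that did not overlap. Their median log2 difference was 0.02, equal to that of all genes to this precision, and it took the opposite sign under 4 of 20 alternatives. Norad, a cytoplasmic RNA that binds Pumilio proteins, had a log2 difference of 0.30 (SE 0.18; limma, adjusted p = 0.713) with a Rragc+/+ mean of 130.2 ± 23.9 (SD, n = 5) and a RragcS74N/+ mean of 159.5 ± 20.7 normalized counts (SD, n = 4). Tug1, another long RNA found partly in the nucleus, had a difference of 0.01, and Oip5os1 one of 0.21.

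Host genes of snoRNAs outside the group did not move one way. Snhg3 had a log2 difference of 0.27, Snhg9 one of -0.46, Snhg20 one of 0.02 and Zfas1 one of -0.04. The host RNAs of microRNAs, Mir142hg and Mir22hg, had differences of -0.42 and 0.24, and Morrbid, an RNA that represses Bcl2l11 and so prolongs the life of myeloid cells, one of -0.02. The groups overlapped for each of these RNAs.

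Among the 189 other genes tested that GENCODE annotates as long non-coding, 6 were higher and 6 lower at an unadjusted p under 0.05, and 0 passed the adjusted threshold. The genotypes did not overlap for 2 that were higher in RragcS74N/+ libraries, Gm28548 (log2 difference 0.97) and Gm26740 (0.63). They also did not overlap for 2 that were lower, Gm48768 (-0.99) and 4833407H14Rik (-0.56). All 4 had an adjusted p of 0.713 (limma), and the median over the 189 genes was 0.04. Of all genes tested, 2.01% were higher and 3.81% lower at an unadjusted p under 0.05 (limma). The shares without overlap were 0.674% higher and 1.02% lower.

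Further listed genes near Malat1 and Neat1 along chromosome 19 were also compared. Frmd8os, an antisense RNA beside Neat1, had a log2 difference of 0.44 (SE 0.32), and the protein-coding genes Frmd8, Slc25a45 and Dpf2 beyond it had 0.10, -0.16 and 0.03. On the other side Ehbp1l1, Map3k11 and Sipa1 had -0.38, -0.60 and -0.09. Of these 7 genes, Map3k11 had an unadjusted p under 0.05 (limma, adjusted p = 0.713), in the direction opposite to Malat1. In that direction 3.81% of all genes had such a p.

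Proteins of the bodies and pathways in which these RNAs take part were listed as well. Of 13 paraspeckle proteins tested, 0 had an unadjusted p under 0.05, with a median log2 difference of 0.12, and Dazap1, an RNA-binding protein of that body, had -0.44 (limma, adjusted p = 0.713). Of 20 nuclear speckle proteins, Srsf1, a splicing factor, was higher at an unadjusted p (0.60; limma, adjusted p = 0.713), 0 were lower, and the median was 0.09. At that p, 2.01% of all genes were higher and 3.81% lower. Srrm2, a scaffold of speckles, had -0.26 (limma, adjusted p = 0.751). These lists hold proteins that act in many other steps of RNA processing.

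Several spliced host RNAs, that of Gas5 among them, are known to be degraded by nonsense-mediated decay. Of 14 genes tested for decay and the exon junction complex, Rbm8a, a core subunit of that complex, was lower at an unadjusted p (-0.38; limma, adjusted p = 0.713), 0 were higher, and the median was -0.13. At that p, 3.81% of all genes were lower and 2.01% higher. Upf1, the central helicase of decay, had -0.45 (limma, adjusted p = 0.713). Of 10 genes for the nuclear exosome and export, 0 had an unadjusted p under 0.05, with -0.46 for Alyref and -0.30 for Ddx39b, both of the export machinery. Of 12 snoRNP proteins named, 2 were tested, Snu13 (-0.29) and Nop10 (0.20), and 0 had an unadjusted p under 0.05.

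Protein-coding genes with a snoRNA in their span gave 2 higher and 4 lower of 151 at an unadjusted p, with a median of 0.05. The genotypes did not overlap for 3 of them, among which Tmf1 was higher (0.43) and Kpna4 lower (-0.29), and the smallest p belonged to Ap1b1 (-0.89) and the ribosomal protein gene Rps13 (-0.44). Of 8 such genes annotated as non-coding outside the group, 0 had an unadjusted p under 0.05, with a median of 0.22 and the smallest p for Gm15832 (0.46) and Cct6a (0.36). Cct6a encodes a chaperonin subunit although the annotation used types it as a processed transcript. Ribosomal protein genes gave 0 higher and 6 lower of 82, with a median of 0.03, and Rpl8 had the smallest p (-0.75; limma, adjusted p = 0.713). Over all genes tested, 2.01% were higher and 3.81% lower at an unadjusted p under 0.05 (limma). The genotypes did not overlap for 0.674% of all genes in the higher and 1.02% in the lower direction.

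The RNAs with the pattern most like Malat1 were sought among the 3474 genes whose mean reached 50 normalized counts, by Pearson r over the 9 genotype-centred libraries. The highest were Hhex (0.97), Rbm33 (0.92), Camk1d (0.91), Dhrs3 (0.90) and Zfp638 (0.89), and the lowest were Dnajc14 (-0.94), Arhgef3 (-0.89) and Gnb1 (-0.87). All 8 are protein-coding, and none is among the long non-coding RNAs considered here. They are the extremes of a ranking of 3474 genes over 9 libraries, where high values can arise by chance, and carry no test. The middle 90% of these genes ran from -0.52 to 0.55, and the r of Neat1 (0.23) lay inside this range. Kcnq1ot1 (0.33) lay inside it too, but its mean was below 50 and it was not among these genes. Hhex, the most alike within genotypes, had means of 220.8 and 220.3 normalized counts in Rragc+/+ and RragcS74N/+, a log2 difference of 0.00028.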

How the data were processed

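Sorted neutrophils were compared between 5 Rragc+/+ and 4 RragcS74N/+ libraries. Reads had been aligned to GRCm39 by TopHat2 (version 2.0.10, per the submitters' processing notes) and counted per gene and by strand with HTSeq 0.6.1, according to the methods of the study. The deposited values are a signal: gene read counts that the authors divided by a size factor per library, called normalized counts here. Collapsing of reads by molecular identifier and the choice of the 7197 genes are not stated, so several reads may stem from 1 molecule. In every library, 100% of values were integer multiples of the smallest value (tolerance 1e-06), which gave 1214295 to 1973957 recovered reads per library. The number of columns without a sample was 0. Sampling noise was exceeded in each of the 16 within-genotype pairs (chi-square per degree of freedom at least 5.70), so no library was taken for a duplicate. The labels do not tie libraries to separate animals, so p-values measure the spread between libraries. Fewer RragcS74N/+ libraries were analysed here than the mice the study's text describes.

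limma was fitted to genes whose mean was 10 or more (version 3.58.1, R 4.3.3, trended empirical Bayes, genotype as the one term) on log2(value + 1), a scale that understates changes of low genes, with Benjamini-Hochberg adjustment over 6673 genes and a threshold of 0.05. edgeR (4.0.16) and DESeq2 (1.42.0) on recovered reads were alternatives and called 0 genes at the adjusted threshold, as limma did; at an unadjusted p under 0.05 limma called 388, edgeR 460 and DESeq2 447. Other alternatives were the pseudocount, filter, scaling, array weights, removal of GC trends, and omission of each library. Procedures were tested on simulated data. Single values were tested by exact permutation over 126 splits, and correlations over 2880 rearrangements within genotypes.

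The members and lists were chosen with earlier results of these data known. Named genes were all listed members, every listed gene of the further long non-coding RNAs, the 2 genes with the smallest p of each other list plus any whose genotypes did not overlap, and the 5 genes most and 3 least correlated with Malat1. The neighbours of Malat1, the relations among host genes and with library measures, and the omission of libraries from those relations and of the 3 libraries highest in Prg2 and Epx were chosen after the data were seen. Tests of summed markers between genotypes were not planned in advance. Transcripts, biotypes and gene order came from GENCODE on the older assembly GRCm38, where 7067 symbols were found, and start windows from RefSeq (GRCm38.p6), from which windows of 7 members were read. Some genes that these rules name are not reported here.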

Additional observations from a re-analysis of the deposited data

Results flagged for a closer look

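In each genotype, the highest and lowest library of the members, the further long non-coding RNAs and the library measures were compared with their nearest neighbour by Dixon's criterion. Of 46 groups of libraries examined, 4 held a library that stood apart, where chance alone gives about 1 in 20, or 2.3. None of the 4 was a member of the group. Tug1 reached 195 normalized counts in RragcS74N/+ replicate 1, against 124 in the next library of that genotype. Morrbid reached 308 in Rragc+/+ replicate 5, against 230.2 in the next. The same library held 4.76% of its reads in ribosomal protein genes, against 3.55% in the next, and 100.3 normalized counts of Prg2 and Epx together, against 27.3. Rragc+/+ replicate 5 was also above its genotype's mean for all 4 host genes, and what these values share was not tested.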

How the results depend on the processing

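The adjusted threshold was passed by 0 of the 6 RNAs under each of 20 alternatives, and their median difference stayed above 0, from 0.22 to 0.53. The count of RNAs with an unadjusted p under 0.05 went from 0 to 1 with DESeq2, with the GC trend removed and without RragcS74N/+ replicate 3 (range 0 to 1 over omitted libraries); in each case the RNA was Neat1. The count with genotypes that did not overlap went from 0 to 1 with the GC trend removed and without Rragc+/+ replicate 2 (range 0 to 1). An unadjusted p under 0.05 was held by 388 of 6673 genes, by 201 of 6648 without Rragc+/+ replicate 2 and by 907 of 6629 without Rragc+/+ replicate 5 (191 of the 3475 genes left by a filter at a mean of 50), and 0 passed the adjusted threshold in any setting. The Gas5 difference became -0.087 with the GC trend removed and -0.29 without the 3 libraries highest in Prg2 and Epx, and ranged from -0.12 to 0.24 over omitted libraries. The median of the further long non-coding RNAs became -0.055 and -0.011 under the same 2 settings and ranged from -0.058 to 0.13 over omitted libraries. The centred r with Malat1 became -0.25 for Snhg1 with columns rescaled to the same total. Over omitted libraries it ranged from 0.091 to 0.42 for Neat1, 0.18 to 0.61 for Kcnq1ot1, -0.32 to 0.38 for Snhg1, -0.30 to 0.061 for Snhg5, -0.42 to 0.14 for Snhg8 and -0.34 to 0.038 for Gas5. The causes were not tested. Snhg5, Snhg1 and Kcnq1ot1 fell under the filter at a mean of 50, and array weights, edgeR and DESeq2 give no separate library values for the overlap count. No paired analysis was possible because replicate numbers were given in accession order. With 7 to 33 reads per library for Snhg5 and Snhg1, counting error alone reaches 37.8% of the value for Snhg5 in its lowest library.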
